A study of Mus musculus with 6 samples.

Results

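Macrophage and myeloid genes were followed as a set of 44 genes in cells sorted from adult mouse ovaries for a Gli1-lineage label. The members were taken by name, as every probe set of the deposited table with a single platform gene symbol on the list. All 44 had at least 1 probe set, 83 in all, among 18193 genes with a probe set. Of the 44, 35 lay above the floor for testing, a signal of 99.4, and 9 lay below it (Cd14, Cd163, Coro1a, F13a1, Itgam, Itgb2, Ms4a6d, Spi1 and Trem2).

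The mice carried Gli1-CreERT2, a tamoxifen-inducible Cre recombinase expressed where the hedgehog target Gli1 is active, and Rosa-LSL-tdTomato, a reporter that stays on in a cell and its daughters once Cre has acted. In the Mesonephros_theca group tamoxifen was given before birth, first at E12.5 and then at both E14.5 and E16.5, and in the Ovary_theca group on postnatal days 1 to 3 through the lactating dam. All 6 samples, 3 per group, were tdTomato-positive cells of female 129S6/SvEvTac mice aged 2 months, dissociated with enzymes and sorted by flow cytometry, and each was measured on 1 array. The label marks what expressed Gli1 at the time of tamoxifen, so origin and time of labelling changed together and cannot be told apart, and the labels do not say whether replicates came from separate animals.

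Macrophages are phagocytes that live in every tissue, including the ovary, where they surround vessels, clear dying follicle cells and gather in regressing corpora lutea. They arise from haematopoietic progenitors under the transcription factor PU.1 and survive on the growth factors CSF1 and IL-34, which both bind the receptor encoded by Csf1r. Their transcripts include receptors that pair with small signalling adaptors, lysosomal proteases, the chains of complement C1q and, in antigen-presenting cells, class II major histocompatibility molecules. They are not theca cells, so the set follows the RNA of another cell lineage in samples sorted for a stromal label.

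The sorted samples carried the markers of theca and stroma at high signal. Cyp17a1, the androgen-making enzyme of theca cells, read 3346, 10577 and 8689 in mesonephros-derived replicates 1, 2 and 3 and 1413, 1304 and 619 in the ovary-derived ones, and the 12 theca and stroma markers with a probe set summed to 91830 to 189557 per array. The summed signal of the 44 members was 7239 to 45846. Over all probe sets without controls, mesonephros-derived replicates 1 and 2 stood apart: they correlated with each other at 0.845 and with the ovary-derived arrays at 0.871 to 0.893, while the ovary-derived arrays correlated with each other at 0.963 to 0.973. Spike-in transcripts added before amplification read 13.9, 13.2 and 2.24 times their ovary-derived level in mesonephros-derived replicates 1, 2 and 3. The 3′ probe set of Gapdh read 5.29, 3.48 and 2.63 times its 5′ probe set on these arrays and 1.94 to 2.86 times on the ovary-derived arrays.

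The macrophage and myeloid genes did not separate the groups as a set, and instead split the mesonephros-derived samples from one another. Most tested members were below the floor in replicate 1, and 22 of the 35 lay above the ovary-derived mean in replicate 2 (47.5% of all genes tested did) but 5 of 35 in replicate 3 (47.1%). The summed signal of the 44 members relative to the ovary-derived mean was 0.293, 1.85 and 0.682 for mesonephros-derived replicates 1, 2 and 3, while the ovary-derived replicates themselves stood at 0.948, 1.18 and 0.877. Below every ovary-derived sample in all 3 mesonephros-derived samples lay 6 of the 35 tested members (17.1%), near the 12.6% of all genes tested. Among them were Pf4, Mrc1 and Csf1r on its brightest probe set. In bulk samples such as these, fewer macrophages and less RNA per macrophage cannot be told apart.

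No member passed an adjusted p of 0.05 (limma, Benjamini-Hochberg over 11703 genes tested), and adjusted p-values of the 35 tested members ran from 0.191 to 0.993. The background was low as well, with 0.0342% of all genes tested called higher and 0.00854% called lower. At an unadjusted p of 0.05, 5 of the 35 were lower (Pf4, Mrc1, Csf1r, Cd52 and Aif1) and 0 higher, against 7.22% and 6.46% of all genes tested. Of these 5, Cd52 and Aif1 passed the floor only through their ovary-derived values and so had to differ. The median log2 change of the tested members, mesonephros-derived minus ovary-derived, was −0.85, with 31 members below 0 and 4 above, while the median of all genes tested was −0.08 and 56.5% of them lay below 0. That median rested on 1 array: without mesonephros-derived replicate 1 it was −0.02, with 19 members below 0 and 16 above, and 53.8% of all genes below 0. Without mesonephros-derived replicate 2 the median was −1.31 and 18 of 35 members were lower at an unadjusted p of 0.05, against 9.13% of all genes tested.

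**Figure D1:**
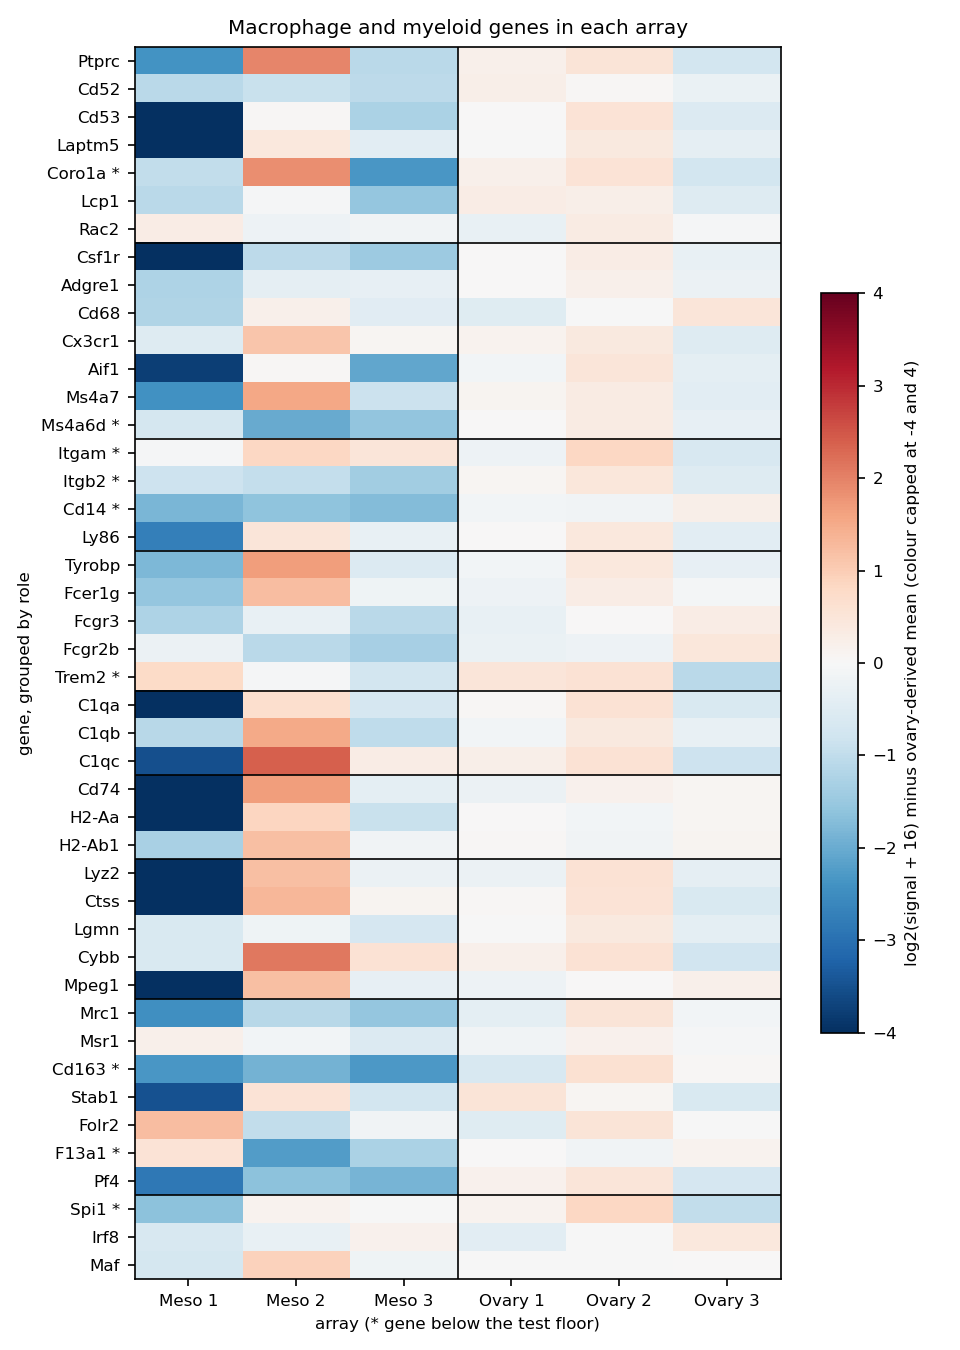
Each row is 1 of the 44 genes and each column 1 array; colour gives log2(signal + 16) minus the mean of the 3 ovary-derived arrays, capped at −4 and 4, lines separate the 9 roles and the groups, and an asterisk marks the 9 genes below the test floor. The column of mesonephros-derived replicate 1 is mostly blue, that of replicate 2 is red for 22 of the 35 tested genes, and Csf1r, Mrc1 and Pf4 are blue in all 3.

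Most members ranked the mesonephros-derived arrays alike. In 27 of the 35 tested members replicate 2 was highest, replicate 3 next and replicate 1 lowest, an order found in 22% of all genes tested, and 24 kept it when signals below the floor were taken as equal (21.2%). Replicate 1 was below every other sample for 27 members, against 32.1% of all genes, or for 23 against 30.1% with signals below the floor taken as equal. It lay over 4-fold below the ovary-derived mean on the log2(signal + 16) scale for 17, against 4.48%. That count takes signals below the floor at face value. In all 17 replicate 1 was below the floor, so the size of the gap is not established for them. Replicate 2 was above every ovary-derived sample for 19 members, against 36.1% of all genes, and over 2-fold above the ovary-derived mean for 13, against 9.41%. Of the tested members, 62.9% were below the floor in replicate 1, against 8.66% of all genes tested on that array, and in replicate 2 the shares were 8.57% and 5.02%.

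The ovary-derived arrays differed less, and also in a shared order. Replicate 2 was the highest of the 3 for 24 of 35 tested members, against 29.4% of all genes tested, and replicate 3 the lowest for 21, against 36.7%. The mean deviation of the tested members from the ovary-derived mean was −0.05, 0.29 and −0.24 log2 units for ovary-derived replicates 1, 2 and 3. It was −2.30, 0.46 and −0.63 for the mesonephros-derived replicates, where the mean over all genes tested was −0.16, −0.06 and −0.03.

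Other measures also differed among the mesonephros-derived arrays. The amplification spikes, given above, were nearly alike in replicates 1 and 2, at 13.9 and 13.2 times their ovary-derived level. The 3′ to 5′ ratio of Gapdh was highest in replicate 1. The part of these measures in the result was not tested. Theca and stroma markers summed to 1.90, 1.86 and 1.36 times their ovary-derived sum in replicates 1, 2 and 3, a sum led by collagens such as Col1a2 (42132 in replicate 1). The genes of steroid synthesis on that list ranked the arrays differently from the collagens. Cyp11a1, which makes pregnenolone, read 2371, 9988 and 7065 in replicates 1, 2 and 3 and, like Cyp17a1, was lowest of the 3 in replicate 1. Star was also lowest there, at 675, 2092 and 1172. Hsd3b1, the brightest of these genes, was not, at 16002, 18914 and 13295, with its lowest value in replicate 3.

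**Figure D2:**
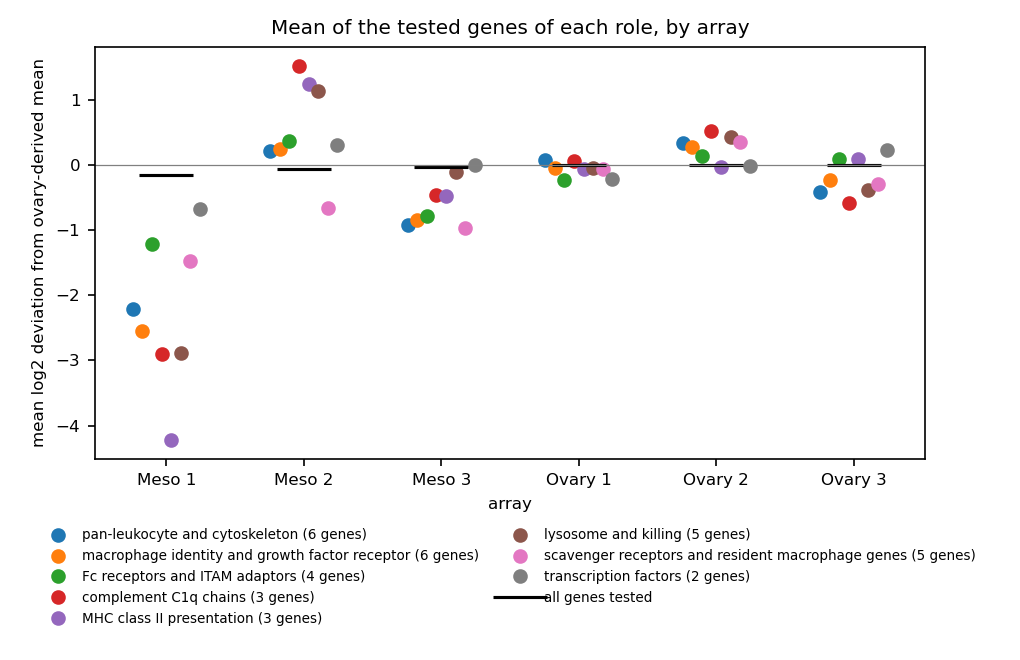
Points give the mean deviation from the ovary-derived mean, in log2 units, of the tested genes of each role on each array, and black bars the mean of all genes tested. In mesonephros-derived replicate 1 the class II genes lie lowest at −4.22 and in replicate 2 the C1q chains highest at 1.53, where the scavenger receptors and resident macrophage genes lie at −0.66 while the other roles shown lie above 0.

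Csf1r, the receptor for CSF1 and IL-34 on which macrophage survival depends, had a signal of 2.81, 615 and 461 in mesonephros-derived replicates 1, 2 and 3 and of 1300.2, 1583 and 1059.9 in the ovary-derived ones. On this probe set, the brightest of the gene, all 3 mesonephros-derived values lay below all ovary-derived values, with replicate 1 far under the floor. The log2 change was −2.88 ± 1.12 (SE, limma adjusted p = 0.334), and −1.26 without mesonephros-derived replicate 1 (adjusted p = 0.0824). The other probe sets of Csf1r above the floor did not give the same size, with differences of −1.75 and −0.03, and on the last of these the mesonephros-derived replicates read 170, 334 and 146 against 185 to 234 in the ovary-derived samples, all above the floor. The low signal of replicate 1 and the separation of the groups are therefore those of particular probe sets and not of all probes of the gene.

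Other identity genes of macrophages went different ways. Adgre1, which encodes the adhesion receptor F4/80, was dim throughout, at 46.4, 97.5 and 101 in the mesonephros-derived samples and 134, 153 and 109 in the ovary-derived samples (−0.65 ± 0.45 SE, limma adjusted p = 0.543). Its groups did not overlap but lay next to each other near the floor. Adgre1 passed the floor only through its ovary-derived values and so had to differ. Aif1, which encodes the calcium-binding protein IBA1, read 6.94, 311 and 59.4 against 278, 424 and 225, so that only mesonephros-derived replicate 2 reached the ovary-derived range (−1.93 ± 0.84 SE, limma adjusted p = 0.362). Like Adgre1, Aif1 passed the floor only through its ovary-derived values. Cd68, a glycoprotein of late endosomes, read 260, 715 and 451 against 446, 614 and 889 and overlapped between the groups (−0.49 ± 0.42 SE, limma adjusted p = 0.611). The fractalkine receptor gene Cx3cr1 and the membrane protein gene Ms4a7 were highest in mesonephros-derived replicate 2, at 334 and 845, where the ovary-derived samples reached 197 and 358. Ms4a6d was below the floor in all 6 samples.

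Receptors that lack signalling domains of their own depend on the adaptors encoded by Tyrobp and Fcer1g, which carry the tyrosine motif read by the kinase Syk. Tyrobp had a signal of 158, 1897 and 395 in mesonephros-derived replicates 1, 2 and 3 and of 536, 795 and 465 in the ovary-derived samples. Replicate 2 was above and replicates 1 and 3 below all ovary-derived samples, and the log2 change of −0.22 ± 0.74 (SE, limma adjusted p = 0.911) turned to 0.56 without replicate 1. Fcer1g followed it at 171, 1266 and 472 against 459, 658 and 506. The 2 adaptors thus ranked the mesonephros-derived arrays alike.

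The receptors for the constant part of IgG gave a mixed picture. Fcgr3, an activating receptor that signals through Fcer1g, read 90.0, 185 and 103 against 187, 235 and 290, below every ovary-derived sample in all 3 mesonephros-derived samples (−0.87 ± 0.42 SE, limma adjusted p = 0.393). Fcgr2b, the inhibitory receptor, read 298, 158 and 131 against 291, 305 and 493 and was highest in mesonephros-derived replicate 1 within that group (−0.88 ± 0.42 SE, limma adjusted p = 0.389). Its 3 probe sets above the floor all differed in the same direction, by −0.88, −0.71 and −0.68, but on the last of these replicates 2 and 3 were above the ovary-derived samples, at 290 and 309 against 184 to 229, and replicate 1 read 8.33. Fcgr1, the high-affinity IgG receptor, which is not a member and was not tested, read 299 in replicate 2 and 33.4 to 68.6 in the other 5 samples. Trem2, a lipid-sensing receptor that uses Tyrobp, was below the floor in all 6 samples.

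The 3 chains of C1q, the recognition unit of the classical complement pathway, are made mainly by macrophages. C1qa had a signal of 5.00, 536 and 205 in mesonephros-derived replicates 1, 2 and 3 and of 341, 504 and 213 in the ovary-derived samples (log2 change −1.35 ± 1.02 SE, limma adjusted p = 0.574). C1qb read 875, 5589 and 942 against 1794, 2543 and 1566 (−0.21 ± 0.62 SE, limma adjusted p = 0.901). C1qc read 18.7, 2043 and 467 against 451, 578 and 205 (−0.27 ± 1.22 SE, limma adjusted p = 0.937). Replicate 2 exceeded every ovary-derived sample for all 3 chains and replicate 1 lay below every ovary-derived sample for all 3. Without replicate 1 the changes were 0.00 for C1qa, 0.25 for C1qb and 1.34 for C1qc, and without replicate 3 the change of C1qb was 0.20. The other probe sets of C1qb above the floor differed by −0.26 and −0.92. In replicate 1 they read 667 and 16.3, against 1142 to 1749 and 277 to 397 in the ovary-derived samples. The summed signal of the chains was 0.329, 2.99 and 0.591 times the ovary-derived mean in the mesonephros-derived samples. In replicate 1 the brightest C1qb probe set gave 875 of the summed 898.

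Class II genes, whose products present peptides to helper T cells, had the widest range of role means over the arrays, from −4.22 to 1.24 log2 units. Cd74, the invariant chain that guides class II molecules through the cell, had a signal of 8.36, 4427 and 1060.2 in mesonephros-derived replicates 1, 2 and 3, while the ovary-derived samples lay close together at 1163, 1566 and 1455. H2-Aa, the alpha chain of I-A, read 10.7, 2198 and 640 against 1228, 1126 and 1273. H2-Ab1, the beta chain of the same molecule, read 291, 1718 and 674 against 757, 662 and 799.9. For all 3 genes replicate 2 was above every ovary-derived sample and replicate 1 below every one. The log2 changes were −1.52 ± 1.52 for Cd74, −1.85 ± 1.29 for H2-Aa and −0.07 ± 0.54 for H2-Ab1 (SE, limma adjusted p = 0.668, 0.539 and 0.964). Cd74 turned to 0.64 and H2-Ab1 to 0.54 without replicate 1. The other probe sets of H2-Ab1 above the floor differed by −0.15 and −0.92, and on both replicate 2 was again above and replicate 1 below the ovary-derived samples.

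Of the lysosomal and killing genes of phagocytes, Lyz2, Ctss and Mpeg1 ranked the arrays in the same way. Lyz2, lysozyme, read 57.7, 3024 and 1119 in mesonephros-derived replicates 1, 2 and 3 against 1117, 1958 and 1022.9 in the ovary-derived samples (−1.06 ± 1.11 SE, limma adjusted p = 0.687). Ctss, the cathepsin that trims the invariant chain, read 24.5, 2847 and 1218 against 1162, 1663 and 739. Mpeg1, the pore-forming protein perforin-2, read 18.0, 1472 and 490 against 541, 629 and 715 (−1.12 ± 1.12 SE, limma adjusted p = 0.669). In each of these 3 genes replicate 2 was above and replicate 1 below the ovary-derived range, and each change lay above 0 without replicate 1, at 0.49, 0.72 and 0.44.

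Cybb and Lgmn lay closer to the ovary-derived level in replicate 1 than these 3 genes did. Cybb, the catalytic subunit of the phagocyte NADPH oxidase, read 73.7, 570 and 185 against 139, 188 and 63.1, and its change of 0.69 ± 0.69 (SE, limma adjusted p = 0.669) was the highest of the tested members, although it turned to −0.02 without mesonephros-derived replicate 2. Lgmn, the asparaginyl endopeptidase legumain, varied little, at 253, 350 and 241 against 390, 521 and 298 (−0.48 ± 0.35 SE, limma adjusted p = 0.555).

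**Figure D3:**
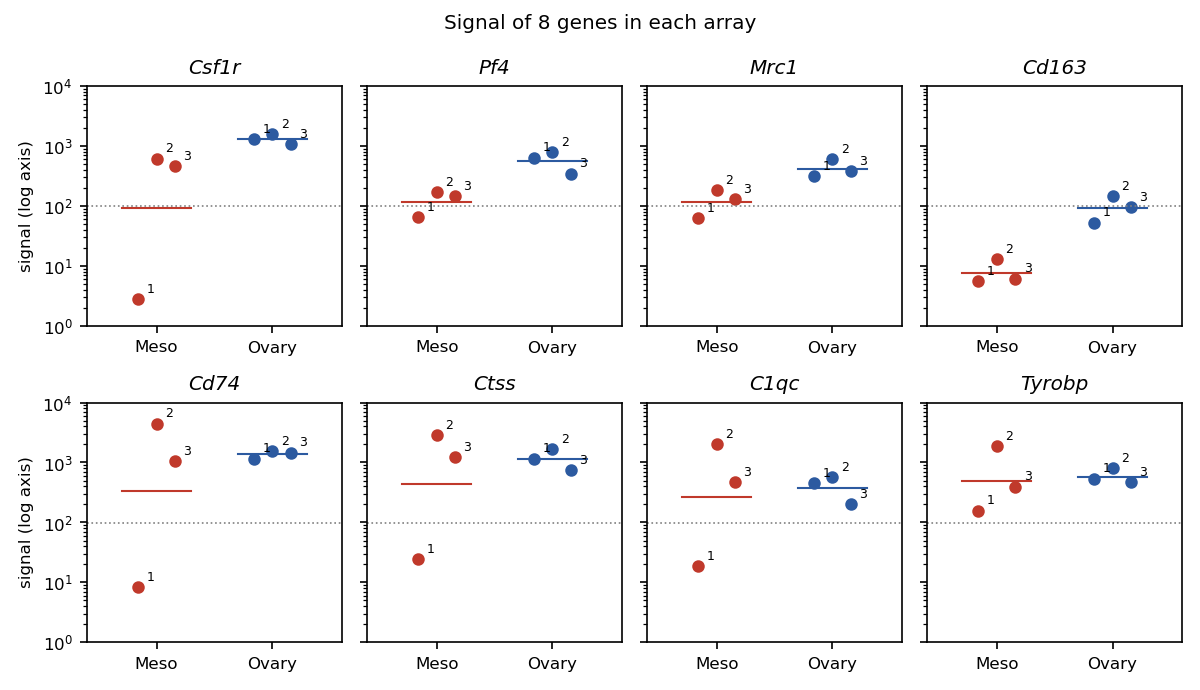
Signal on a log axis of 8 genes in each array, with replicate numbers beside the points, the geometric mean of each group as a bar and the test floor of 99.4 as a dotted line. The upper row shows Csf1r, Pf4 and Mrc1, whose groups do not overlap, and Cd163, which is above the floor in 1 sample, and the lower row Cd74, Ctss, C1qc and Tyrobp, whose mesonephros-derived replicates 1 and 2 lie on either side of the ovary-derived points.

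Scavenger receptors and genes of resident tissue macrophages had the lowest role mean in mesonephros-derived replicate 2, at −0.66 log2 units. Pf4, the chemokine platelet factor 4, which macrophages as well as platelets express, had a signal of 64.3, 171 and 145 in mesonephros-derived replicates 1, 2 and 3 and of 638, 800.2 and 346 in the ovary-derived samples. All 3 mesonephros-derived values lay well under the lowest ovary-derived value, and the log2 change of −2.11 ± 0.47 (SE) had the smallest p of the members (limma unadjusted p = 0.00145, adjusted p = 0.191). With arrays weighted by their noise it passed the threshold (log2 change −2.13, limma adjusted p = 0.033). That setting called 129 of all genes tested, against 5 in the main fit. Mrc1, the mannose receptor CD206, read 62.9, 184 and 131 against 315, 598 and 384, also without overlap (−1.71 ± 0.46 SE, limma adjusted p = 0.245). Pf4 stood at −1.74 and Mrc1 at −1.33 without mesonephros-derived replicate 1.

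Cd163, the scavenger receptor for haemoglobin bound to haptoglobin, was not tested because its mean lay below the floor. It read 5.53, 13.1 and 6.15 in the mesonephros-derived samples and 52.9, 148 and 96.8 in the ovary-derived samples, where 1 of 3 was above the floor. Stab1, which macrophages share with sinusoidal endothelium, read 33.4, 791 and 319 against 785, 573 and 349, with replicate 2 above and replicates 1 and 3 below the ovary-derived samples (−1.23 ± 0.87 SE, limma adjusted p = 0.547). The folate receptor gene Folr2 and F13a1, which encodes a subunit of coagulation factor XIII, went the other way from most members, with the highest value of all 6 samples in mesonephros-derived replicate 1, at 357 and 157. Msr1, a receptor for modified lipoproteins, also had its highest value there, at 142. Of the 35 tested members, 2 (Folr2 and Msr1) were highest in that array, against 26.1% of all genes tested.

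Of the 35 tested members, 6 lay lower in every mesonephros-derived than in every ovary-derived sample (Adgre1, Cd52, Csf1r, Fcgr3, Mrc1 and Pf4), with signals below the floor taken as equal, and 0 lay higher. Over all genes tested the shares were 12.6% lower and 9.43% higher, so the members' count is near the background. It includes Cd52 and Adgre1, which passed the floor only through their ovary-derived values and so had to differ. The integrins and lipopolysaccharide co-receptors were dim. Cd14, the co-receptor for bacterial lipopolysaccharide, read 9.10, 13.6 and 10.8 against 67.0, 65.7 and 89.6, all below the floor, where signals have no order. Itgb2, the beta chain of the leukocyte integrins, read 38.4, 34.9 and 21.6 against 87.8, 117 and 51.7, with 1 sample above the floor. Its partner Itgam was below the floor in all 6 samples. Ly86, which encodes the secreted partner of the receptor CD180, followed the majority at 12.3, 243 and 136 against 172, 234 and 124 (−0.85 ± 0.77 SE, limma adjusted p = 0.631), or 0.08 without mesonephros-derived replicate 1.

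Of the genes shared by all leukocytes, Ptprc, Cd53 and Laptm5 ranked the mesonephros-derived arrays as most members did. Ptprc, which encodes the pan-leukocyte phosphatase CD45, had a signal of 16.1, 644 and 63.6 in mesonephros-derived replicates 1, 2 and 3 and of 180, 226 and 86.1 in the ovary-derived samples (log2 change −0.51 ± 0.98 SE, limma adjusted p = 0.840, and 0.44 without replicate 1). A second probe set of Ptprc, below the floor on average, read 513 in mesonephros-derived replicate 1 and 30.5 to 80.4 in the other 5 samples. Cd53, a tetraspanin, read 3.88, 334 and 126 against 325, 478 and 218 (−1.77 ± 0.91 SE, limma adjusted p = 0.418). Lcp1, the actin-bundling protein L-plastin, read 198, 419 and 138 against 535, 511 and 297 (−0.89 ± 0.46 SE, limma adjusted p = 0.417), and its other probe set above the floor differed by −2.53. Laptm5, a lysosomal membrane protein of leukocytes, was lowest in replicate 1 at 38.7, while the other 5 samples lay between 1189 and 2120. Its probe sets above the floor differed by −1.63, −0.82 and −0.47.

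Cd52, a small surface glycoprotein of leukocytes, read 66.0, 76.1 and 67.3 in the mesonephros-derived samples and 186, 162 and 127 in the ovary-derived samples. It passed the floor only through its ovary-derived values and so had to differ. All mesonephros-derived values were under the floor, so its signal was at least 1.57-fold lower there, taking the floor in their place (limma log2 change −1.01 ± 0.41 SE, adjusted p = 0.346). Rac2, a GTPase of blood cells, did not differ by more than the spread, with values of 111 to 163 against 103 to 167. Coro1a, an actin regulator of leukocytes, read 41.8, 395 and 6.54 against 115, 149 and 51.3 and was not tested.

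**Figure D4:**
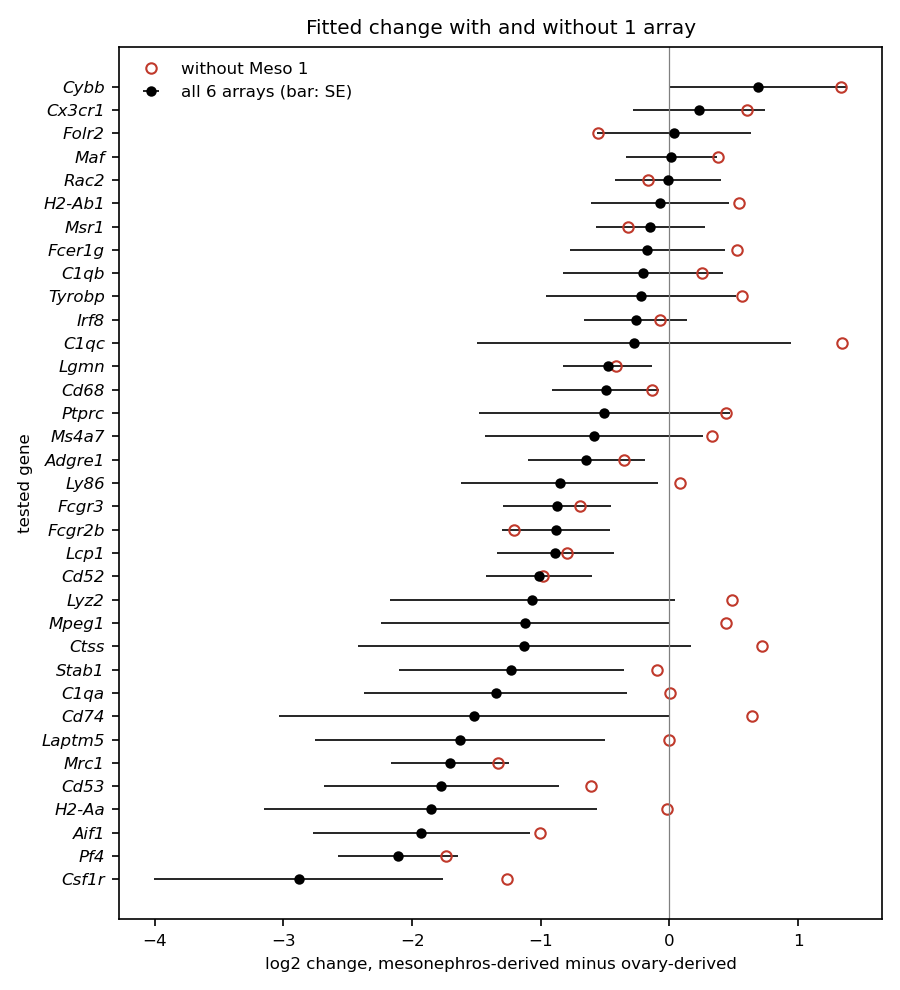
Filled points give the fitted log2 change of each of the 35 tested genes, mesonephros-derived minus ovary-derived, with its SE as a bar, and open points the change without mesonephros-derived replicate 1. Pf4 and Mrc1 stay below −1, at −1.74 and −1.33, while Cd74, Ctss and C1qc move from below 0 to 0.64, 0.72 and 1.34.

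Of the transcription factors, PU.1, encoded by Spi1, is the one that opens the myeloid programme. Its probe set was dim, at 10.1, 72.5 and 64.8 in mesonephros-derived replicates 1, 2 and 3 and 73.8, 127 and 25.3 in the ovary-derived samples, and was not tested. Irf8, a factor of monocytes and dendritic cells, read 158, 203 and 290 against 187, 254 and 350 and overlapped between the groups (−0.26 ± 0.40 SE, limma adjusted p = 0.791), and its other probe set above the floor differed by 0.01. Maf, which macrophages share with many other tissues, was bright at 2741, 8549 and 4018 against 4438, 4484 and 4582 (0.02 ± 0.36 SE, limma adjusted p = 0.988), and its other 5 probe sets above the floor differed by −1.58 to 0.58. Its ovary-derived values lay within a narrow band, while mesonephros-derived replicate 2 was above and replicates 1 and 3 below it.

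Promoter sequences were set beside these values for members that varied with the array and for members lower in every mesonephros-derived sample. The latter kind is a description only, since its share, 17.1% of tested members, was near the 12.6% of all genes tested. RefSeq promoters (GRCm38.p6) were found for 30 of the 44 members. In the 150 bases before the start, on either strand, the core letters GAGGAA of the PU.1 site occurred in 12 of 39 member promoters (30.77%), or 11 of 30 genes, and in 14.47% of all 32851 promoters. CCAAT, the box bound by NF-Y and part of class II promoters, occurred in 11 of the 39 (28.21%) and in 24.5% of all. Matches of the 2 motifs do not overlap in the sequences shown, and some genes list several starts, a few of them with overlapping windows. Pf4 and Mrc1 stand for genes lower in every mesonephros-derived sample, Cd163 for the dim genes of the same role, and C1qb and H2-Aa for genes that varied by array, each 5′ to 3′ on the strand of the gene with both motifs in capitals.
Pf4, chr5:90772285-90772434, plus strand: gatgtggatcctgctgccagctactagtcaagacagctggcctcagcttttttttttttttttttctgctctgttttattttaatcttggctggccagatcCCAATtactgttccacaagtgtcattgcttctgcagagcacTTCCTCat
Mrc1, chr2:14229264-14229413, plus strand: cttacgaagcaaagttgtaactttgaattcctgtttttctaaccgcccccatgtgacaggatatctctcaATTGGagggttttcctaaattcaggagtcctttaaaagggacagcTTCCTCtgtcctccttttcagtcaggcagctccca
Cd163, chr6:124304501-124304650, plus strand: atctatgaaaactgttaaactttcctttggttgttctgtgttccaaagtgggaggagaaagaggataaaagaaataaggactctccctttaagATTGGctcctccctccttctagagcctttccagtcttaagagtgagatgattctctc
C1qb, chr4:136886201-136886350, minus strand: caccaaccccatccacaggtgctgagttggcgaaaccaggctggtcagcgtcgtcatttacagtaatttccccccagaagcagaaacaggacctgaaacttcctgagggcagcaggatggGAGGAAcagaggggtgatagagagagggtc
H2-Aa, chr17:34287824-34287973, minus strand: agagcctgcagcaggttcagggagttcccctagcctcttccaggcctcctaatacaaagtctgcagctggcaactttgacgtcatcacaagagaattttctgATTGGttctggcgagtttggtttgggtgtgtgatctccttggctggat
Pf4 and Mrc1 hold both motifs, the PU.1 core reading TTCCTC because it lies on the opposite strand, C1qb holds the PU.1 core on its own strand, and Cd163 and H2-Aa hold the CCAAT box as ATTGG. Among the genes shown, either motif is thus found in members of both kinds, and a match describes letters in this window and not a bound site.

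Genes that work with the members but are not on the list were less uniform. A further 7 lists fixed for this purpose held 73 genes, of which 66 had a probe set and 34 were tested, with 18 higher, 16 lower, 0 past an adjusted p of 0.05 (limma) and 1 in each direction at an unadjusted p of 0.05. Their median log2 change was 0.04, and mesonephros-derived replicates ran in the order 2, 3, 1 for 13 of 34 (38.2%). The gene with the smallest p was Mertk, a receptor for dying cells, at 817, 1699 and 1435 in mesonephros-derived replicates 1, 2 and 3 against 397, 579 and 725 (log2 change 1.17 ± 0.35 SE, limma adjusted p = 0.263). The other was Fli1, a factor of blood and endothelial cells, at 41.8, 219 and 204 against 660, 614 and 251 (−1.75 ± 0.62 SE, limma adjusted p = 0.303). Ctsb, a lysosomal protease that most cells make, stood at −0.03 ± 0.16 (SE, limma adjusted p = 0.951).

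The lists behind these counts covered several steps of macrophage function. The NADPH oxidase partners had 2 tested members with a median of −0.13, the ITAM and Src-family kinases 5 with a median of 0.52, and the class II partners 2 with a median of −0.29. The CSF1 axis and myeloid transcription factors had 8 with a median of −0.03, the clearance receptors and lysosomal enzymes 9 with a median of 0.06, and the cytoskeletal genes of blood cells 5, also with a median of 0.06. The Toll-like receptors and their partners had 3, with a median of −0.85. Csf1, the ligand of the receptor encoded by Csf1r, read 4275, 1042 and 888 in the mesonephros-derived samples and 764, 851 and 1006 in the ovary-derived ones, and replicate 1 had the highest ligand signal of all samples (0.86 ± 0.52 SE, limma adjusted p = 0.485). Tlr4, which works with the product of Cd14, read 8.44, 575 and 376 against 272, 382 and 279 and so followed the majority of members.

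Most markers of other leukocytes were dim, with exceptions. Of 52 genes with a probe set on 6 lists of dendritic, neutrophil, T, B, NK and mast cell markers, 34 were below the floor on all 6 arrays, 12 were above it on some array but not tested, and 6 were tested, of which 0 passed an adjusted p of 0.05 (limma) and 1 was higher and 2 lower at an unadjusted p of 0.05. Of these 6, Zbtb46, a factor of dendritic and endothelial cells, read 1896 to 2540 over all samples and Prf1, the perforin of killer lymphocytes, 972 to 1203. Cd2, an adhesion receptor of T and NK cells, read 324 in mesonephros-derived replicate 2 and 98.5 to 134 in the other 5 samples.

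The 3 others differed more between the groups. Hdc, the histamine-making enzyme, read 708, 1003.7 and 279 in mesonephros-derived replicates 1, 2 and 3 and 271, 175 and 201 in the ovary-derived samples (1.40 ± 0.47 SE, limma adjusted p = 0.295). Thy1, a surface protein of T cells and of fibroblasts, read 529, 456 and 657 against 1007, 1149 and 1166 (−1.01 ± 0.25 SE, limma adjusted p = 0.229). Cd83, a surface protein of activated dendritic cells and B cells, read 36.7, 100.1 and 21.1 against 178, 274 and 268 (−2.05 ± 0.53 SE, limma adjusted p = 0.230). Cd83 passed the floor only through its ovary-derived values and so had to come out lower. The part of other leukocytes in the members' values was not tested.

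Platelets also make Pf4, and 9 of their markers had a probe set. The 3 tested were Itgb3, an integrin that stromal and endothelial cells make too, at 6395, 3445 and 3757 against 3232, 3478 and 2974 (0.43 ± 0.25 SE, limma adjusted p = 0.460), Gp1bb at 113, 243 and 134 against 159, 103 and 135, and Clec1b at 15.8, 259 and 189 against 153, 188 and 254. Of the other 6, Itga2b read 265 in mesonephros-derived replicate 1, Gp5 was above the floor in 1 sample, and Gp6, Gp9, Ppbp and Treml1 were below the floor on all 6 arrays. Clec1b and Pf4 were both lowest in replicate 1, and the part of platelets in the values of Pf4 was not tested.

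Endothelial markers shared part of the pattern. Their 12 tested members had a mean deviation, in log2 units, of −1.88 for mesonephros-derived replicate 1, 0.03 for replicate 2 and −1.14 for replicate 3, against −2.30, 0.46 and −0.63 for the tested macrophage and myeloid genes. Both sets were lowest in replicate 1 and highest in replicate 2, and Lyve1 on the endothelial list is also made by macrophages. Theca and stroma markers had means of 0.70, 1.09 and 0.66 on the same arrays and lay above the ovary-derived mean on each.

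Among genes outside the member list, those closest in pattern to the mean of the members were on none of the marker lists used here. Of 11668 other genes tested, Flrt1, which encodes an adhesion protein, lay nearest, with a root mean square distance of 0.08 log2 units over the 6 arrays, followed by Tstd3 at 0.16 and Olfml2b at 0.18. The next 7 (Efnb2, Mfsd5, Asb13, Med18, Tmem175, Lrrc8d and Cpeb2) were at 0.18 to 0.21. The tested members themselves lay at 0.24 (Ly86) to 1.71 from their own mean, with a median of 0.81, against 1.05 for all other genes tested. The members were left out of the ranking, and the nearest of 11668 genes will lie close to a mean. These distances therefore do not tell whether the pattern is particular to the members. The order 2, 3, 1 itself was found in 27 of the 35 tested members and in 22% of all genes tested.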

How the data were processed

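The 6 samples, 3 per group, were each hybridised to a 1-colour oligonucleotide array after amplification from equal volumes of RNA, per the labels' protocols. The deposited values are intensities on a linear scale, made by the authors with MAS5 according to the submitters' processing notes. The sources used here do not give its settings. They had been scaled before deposit, since each array's mean was 500 after trimming 2% at either end, and no other scaling was added.

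Of 45037 probe sets without the 64 controls, 34945 had 1 gene symbol in the platform annotation, 932 had several and named no gene, and 9160 were unnamed here. Each of 18193 genes was represented by its probe set with the highest mean of log2(signal + 16); changes on this scale understate those of dim genes. Genes at or above the 40th percentile of probe sets, which is a signal of 99.4, were tested, 11703 in all. Signals below it have no meaningful order, and a member that passed through 1 group had to differ there. The comparison used lmFit and eBayes with an intensity trend from limma 3.58.1 (R 4.3.3), with Benjamini-Hochberg adjustment over all genes tested. The code, tested on simulated data, recovered 200 of 200 changed genes. The simulated spread was smaller than that of many members, so this checks the code and not the power in these data. The members and lists were chosen with earlier results of these data known. Named members are the 3 with the smallest p of each role and a fixed set, and of other lists those with the smallest p; Csf1, Ctsb, Tlr4, Fcgr1, Col1a2, Cyp11a1 and members beyond the rule were chosen after their values were seen, as was counting ranks with signals below the floor taken as equal. Marker lists of other leukocytes and platelets are given by every tested gene. Precision is limited by 3 arrays a group, p-values measure only the spread among these samples, which can be technical, and no 2 arrays were identical. Alternatives were the pseudocount, floor, scaling, probe set choice, eBayes trend, array weights, a replicate block and leaving out each array with probe sets and genes tested kept.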

Additional observations from a re-analysis of the deposited data

How the results depend on the processing

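No member was called by limma in any alternative except array weights, which called 1 (Pf4). The number of members at an unadjusted p of 0.05, 5 of 35 as reported, was 3 with a pseudocount of 1, 9 with no floor (44 tested), 1 with a floor at the 60th percentile (17 tested), 9 with array weights and 2 to 18 when 1 array was left out, with 18 without mesonephros-derived replicate 2 and 2 without any 1 ovary-derived array. Over all genes the 5 calls became 3 with a pseudocount of 1, 2 with median centring, 8 with the mean of all probe sets, 0 without the eBayes trend (1504 genes at an unadjusted p of 0.05), 129 with array weights and 0 to 58 when 1 array was left out, with 58 without mesonephros-derived replicate 1 and 0 without replicate 3 or any 1 ovary-derived array. The median log2 change of the members ran from −1.31 to −0.02 over arrays left out and from −0.94 to −0.59 otherwise. H2-Ab1 turned to 0.032 with quantile normalization, 0.0054 with median centring and 0.055 with array weights, C1qc to 0.020 with a pseudocount of 64, and Maf to −0.13, −0.36 and −0.0034 with quantile normalization, the mean of its probe sets and array weights. Without _x_at and _s_at probe sets H2-Ab1 stood at −0.92 and C1qb at −0.92, and with the mean of all probe sets Lcp1 stood at −1.71, Csf1r at −1.55 and H2-Ab1 at −0.38. With 1 array left out the changes ran as follows for genes that turned: Ly86 −1.51 to 0.085, Tyrobp −1.17 to 0.56, C1qa −2.36 to 0.0024, C1qb −1.07 to 0.25, C1qc −1.60 to 1.34, Cd74 −3.11 to 0.64, H2-Ab1 −0.71 to 0.54, Cybb −0.017 to 1.34, Mpeg1 −2.29 to 0.44, Maf −0.44 to 0.38, Ptprc −1.74 to 0.44 and Lyz2 −2.20 to 0.49. The cause of these changes was not tested. Same-numbered samples of the 2 groups did not deviate together (correlations −0.00, 0.07 and −0.01), so the numbers were not taken as pairs. With the replicate block 4 genes and 0 members were called, and 5 members lay at an unadjusted p of 0.05. A mean under the floor of 99.4 left 9 members untested. In mesonephros-derived replicate 1, 30 of the 44 members were below the floor, among them 62.9% of those tested. The size of their changes is therefore limited too.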
